A study of Mus musculus with 14 samples.

Results

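A set of 10 genes of the Lin28 and let-7 timing pathway was followed through embryonic dorsal skin and the aorta-gonad-mesonephros region (AGM) of the mouse. They are Lin28a, Lin28b, Trim71, Sall4, Hmga2, Igf2bp1, Igf2bp2, Igf2bp3, Igdcc3 and Mycn, chosen by symbol from the 53465 genes of the count table, where each symbol names 1 row. All 10 passed the filter on low counts. In the first of 2 sequencing projects of dorsal skin all 10 fell between E9.5 and E14.5, from 2.14-fold for Igf2bp2 to 513-fold for Sall4 in CPM, the read count scaled to the total count of its library. In the AGM libraries 9 of the 10 rose from the labelled age E9.5 to the labelled age E11.5, and Hmga2 fell.

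Lin28a and Lin28b are RNA-binding proteins of the early embryo. They bind the precursors of the let-7 microRNAs and block their cutting by Drosha and Dicer. Lin28 can also recruit a terminal uridylyltransferase, an enzyme that adds uridines to the precursor's end and so marks it for decay. As tissues mature Lin28 falls and mature let-7 rises, and let-7 in turn silences mRNAs with matching sites in their 3′ untranslated region (UTR), among them those of Lin28a and Lin28b themselves. The pair is best known as a switch of developmental timing, first found in the worm, and in blood formation as a feature of fetal rather than adult progenitors.

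All embryos were wild-type C57BL/6 mice, with no treatment named, and total RNA of dissected, frozen tissue was sequenced after polyA selection. Skin, labelled as dorsal skin cells, was taken at the 4 ages E9.5 and E10.5 (early) and E12.5 and E14.5 (late). It was sequenced in 2 projects with 1 library an age in each, called first-project and second-project skin here (titles E and ES). AGM was labelled at 3 ages from E9.5 over E10.5 to E11.5 in 2 rounds, with 1 library an age in each. The tissue of the E9.5 label is the caudal part of the embryo with what the labels call PsP. The labels do not say whether libraries come from separate embryos or pools, so p-values reflect library spread alone, which may be technical. The count columns of the second AGM round carry sample numbers alone, and each was assigned the age of the same number in the first round, which is an assumption.

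Total counts ran from 19929352 to 24003912 in first-project skin, from 6770338 to 15440012 in second-project skin and from 21527400 to 29534551 in AGM. Second-project skin stood apart, with Spp1, which encodes osteopontin, at 22229 to 34966 CPM against 1.19 to 6.45 CPM in first-project skin. Its 8 red-cell genes summed to 0.295 to 0.854 CPM against 2257 to 4827 CPM in first-project skin. Its 8 dividing-cell genes summed to 195 to 269 CPM against 1804 to 3218 CPM, and Krt5 and Krt14, keratins of basal epidermis, lay at or below 1.63 CPM there. In first-project skin the 8 epidermal genes summed to 152 and 45.7 CPM at E9.5 and E10.5, and to 250 and 3689 CPM at E12.5 and E14.5. The sums of the 2 early ages were the lowest of the 4. Because second-project skin stood apart, its libraries were given as values with counting intervals and no test.

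The AGM libraries ran against the order of their age labels. Tbx6 and Msgn1, regulators of the presomitic mesoderm that shrinks as the trunk is completed, lay at 10.54 to 21.8 CPM and 3.34 to 7.13 CPM in the libraries labelled E11.5. In those labelled E9.5 they lay at 0.904 to 1.12 CPM and at or below 0.0339 CPM. Nr5a1, a regulator of the adrenal and gonad, which form later, lay at 17.0 and 13.4 CPM in the libraries labelled E9.5, at 9.71 and 7.32 CPM in those labelled E10.5, and at 0.0806 and 0 CPM in those labelled E11.5. Both rounds showed this order. Every AGM age below is therefore the labelled age, and each AGM direction is drawn from these labels.

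**Figure D1:**
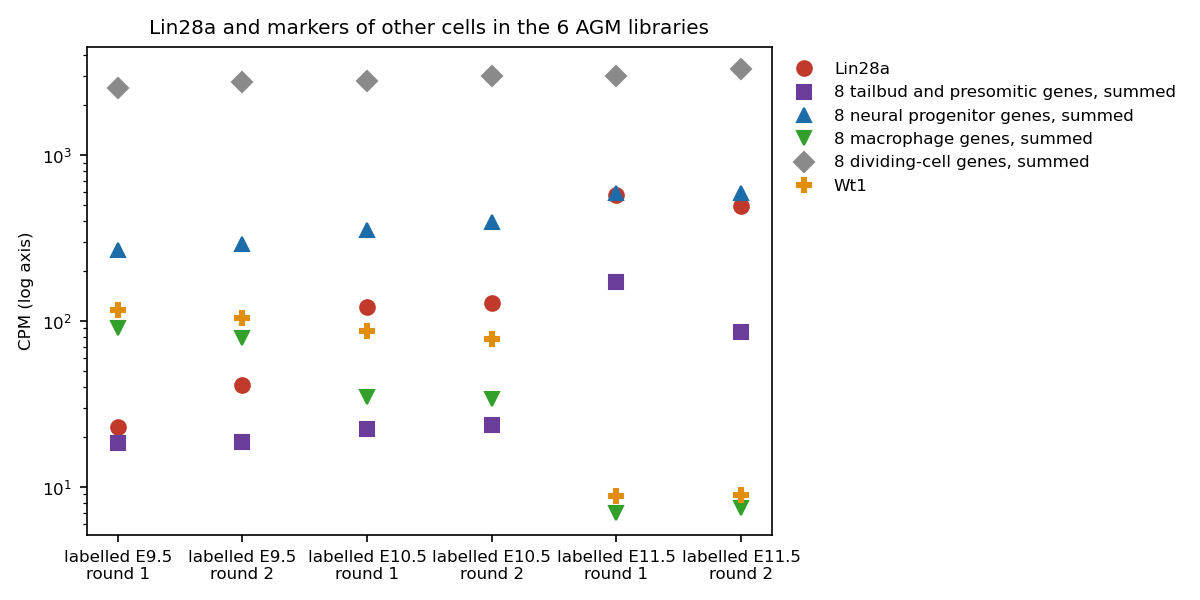
Lin28a, Wt1 and summed marker genes (CPM, log axis) in each of the 6 AGM libraries, ordered by labelled age and round, 1 point a library. Lin28a, tailbud and neural progenitor genes were highest in the libraries labelled E11.5, where macrophage genes and Wt1 were lowest.

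The let-7 microRNAs share 1 seed, bases 2 to 8, which pairs with the target mRNA. Of 1679 mature mouse miRNAs in the RefSeq table (GRCm38.p6), 11 carry the seed GAGGUAG, and 9 of them are the 5p strands of let-7 and miR-98. A set of 3 of these is shown to let the shared seed, in capitals, be seen beside bases that differ.
mmu-let-7a-5p: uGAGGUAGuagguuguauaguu
mmu-let-7g-5p: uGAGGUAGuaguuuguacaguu
mmu-miR-98-5p: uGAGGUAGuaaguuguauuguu

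Lin28 proteins are known to contact the motif GGAG in the loop between the arms of the let-7 precursor. GGAG stood between the arms in 9 of 12 let-7 and miR-98 hairpins and in 8.22% of all 645 hairpins with both arms in the table. The hairpins of let-7b, let-7c-2 and miR-98 lacked these letters there. The hairpins of let-7a-1, on chr13:48538179-48538272 (minus strand), and let-7g, on chr9:106178840-106178927 (plus strand), illustrate the motif, in capitals, and that of let-7b, on chr15:85707319-85707403 (plus strand), its absence.
Mirlet7a-1: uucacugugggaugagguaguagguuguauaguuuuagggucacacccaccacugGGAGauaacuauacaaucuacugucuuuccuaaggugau
Mirlet7g: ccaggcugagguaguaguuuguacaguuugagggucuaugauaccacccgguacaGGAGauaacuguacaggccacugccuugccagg
Mirlet7b: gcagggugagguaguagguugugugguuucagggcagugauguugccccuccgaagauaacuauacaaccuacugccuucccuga

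Each of the 10 genes held at least 1 match to the let-7 seed in its longest annotated 3′ UTR (GENCODE M21, GRCm38). The search was for CTACCTCA (8 bases) and for CTACCTC or TACCTCA not within it (7 bases), on the sense strand. Any match was present in 15% of 20774 genes with a 3′ UTR of 30 bases or more, and an 8-base match in 3.05%. Of the 10 genes 9 had an 8-base match, Mycn being the exception, and 4 had more than 1: Trim71 with 4, Igf2bp1 with 3, and Lin28a and Igdcc3 with 2 each. Only 31 genes in all (0.149%) had as many as 2. Per kilobase the 10 genes held 1.13 matches against 0.124 over all genes, and their median 3′ UTR was 2447 bases against 967. Several of the 10 are known from the literature as let-7 targets, so this count describes how the list was made up and is no finding about it.

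The windows below carry the matches, in capitals, with the bases around each. Lin28a, the pathway's own inhibitor, has its 8-base matches at 909 and 1547 bases after the stop codon, at chr4:134005178-134005207 and chr4:134004540-134004569. Trim71 has its first pair close together, at 166 and 262 bases after the stop codon, at chr9:114512461-114512490 and chr9:114512365-114512394. Hmga2 has 7 matches in all, the most of the 10, and the 8-base one lies 58 bases after the stop codon at chr10:120364213-120364242. Igdcc3 packs 2 into the shortest 3′ UTR of the 10, 538 bases, at chr9:65185711-65185740 and chr9:65185791-65185820. Sall4 has 1, at chr2:168748929-168748958, and Mycn 2 of 7 bases, the first at chr12:12936488-12936516. The Igdcc3 sites lie on the plus strand and the others on the minus strand.
Lin28a, first match: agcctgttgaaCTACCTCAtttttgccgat
Lin28a, second match: tcgccacaaacCTACCTCActgtgttgaaa
Trim71, first match: ttgcctaagtcCTACCTCAgcttaaatttt
Trim71, second match: ataatttctatCTACCTCAactctttgcat
Hmga2, 8-base match: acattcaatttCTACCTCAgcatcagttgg
Igdcc3, first match: actctcagcacCTACCTCAgccggaatgaa
Igdcc3, second match: cgaaagcactcCTACCTCAagccccttaat
Sall4, match: ctttaatttatCTACCTCAattatctttat
Mycn, first match: tactgtaagaaTACCTCAatgtttgaggg

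**Figure D2:**
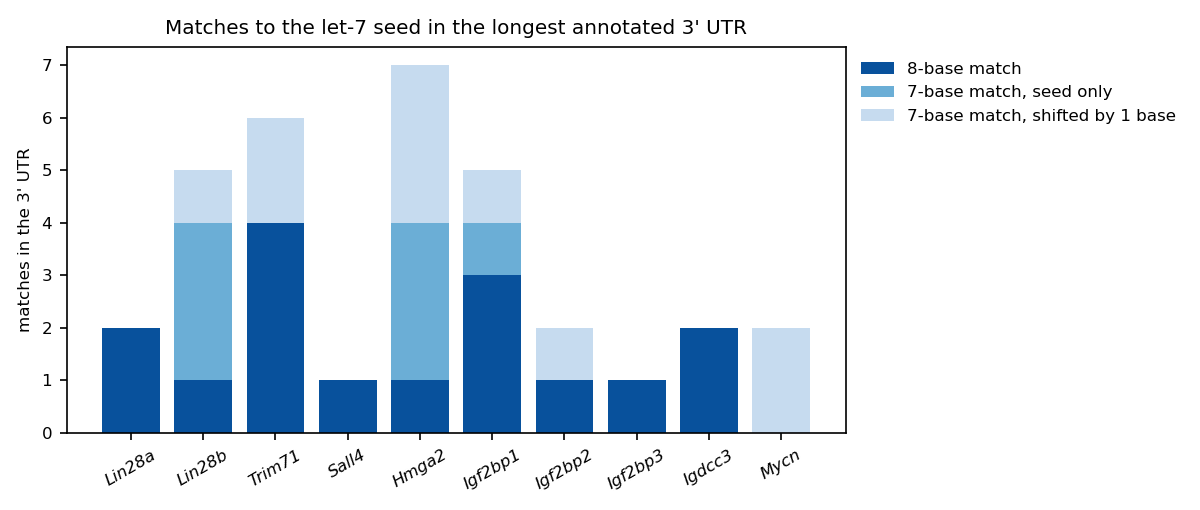
Number of matches to the let-7 seed in the longest annotated 3′ UTR of each gene, stacked by kind of match. Hmga2 had 7 and Trim71 6, while Sall4 and Igf2bp3 had 1 each, and Mycn had no 8-base match.

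The number of matches did not order the genes as their fall in skin did. Sall4 with 1 match and Lin28a with 2 fell most, and Hmga2 with 7 fell 9.54-fold, less than 6 of the other genes. Which UTR form each tissue uses, and the level of mature let-7, were not measured in these libraries.

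Lin28a lies on chr4:134003330-134018841 (minus strand, GRCm38) and Lin28b on chr10:45376620-45486395 (minus strand). In first-project skin Lin28a stood at 366 CPM at E9.5 and 84.6 CPM at E10.5, then at 0.667 CPM at E12.5 and 0.940 CPM at E14.5. The last 2 values rest on 16 and 21 counts, with 95% counting intervals of 0.381 to 1.08 and 0.582 to 1.44 CPM. Lin28a was thus abundant at E9.5 and near its floor from E12.5 on. In bulk tissue, here and below, fewer cells of a type and less RNA per cell cannot be told apart. Its log2 change was −2.11 ± 0.32 (SE) from E9.5 to E10.5 (adjusted p = 0.0073) and −7.03 ± 0.49 from E10.5 to E12.5 (adjusted p = 4.9e-05) by edgeR's quasi-likelihood test with Benjamini-Hochberg adjustment. The later step, 0.62 ± 0.76, did not pass (adjusted p = 0.60). From E9.5 to E14.5 the change of −8.52 ± 0.48 was the 41st lowest of 19945 genes tested.

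Lin28b, the paralogue that outlasts Lin28a in many tissues, fell more slowly. It stood at 288, 137, 11.54 and 3.36 CPM at the same 4 ages. At E12.5 it was therefore the more abundant of the pair also per length, at 1.27 against 0.167 CPM per kilobase of exon (RPKM), while at E9.5 it was the less abundant, at 31.7 against 91.7 RPKM. Its log2 changes were −1.07 ± 0.25, −3.62 ± 0.28 and −1.65 ± 0.33, and each step passed the test (adjusted p = 0.041, 8e-05 and 0.0067). The first of these steps did not pass without either AGM library labelled E11.5 (adjusted p = 0.062 and 0.060), since the spread is taken from the AGM pairs.

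In AGM both paralogues rose with labelled age. Lin28a stood at 23 and 40.8 CPM in the 2 libraries labelled E9.5, at 121 and 129 CPM in those labelled E10.5, and at 571 and 496 CPM in those labelled E11.5. The 3 labelled ages did not overlap, and the highest value of all 14 libraries was in AGM. Its log2 change from E9.5 to E11.5 was 4.21 ± 0.26 (adjusted p = 2.2e-05), the 85th highest of 17613 genes tested. Lin28b stood at 36.5 and 56.3, 109 and 120, and 218 and 224 CPM at these labels, again without overlap. Its log2 change was 2.40 ± 0.19 (adjusted p = 5.8e-05).

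**Figure D3:**
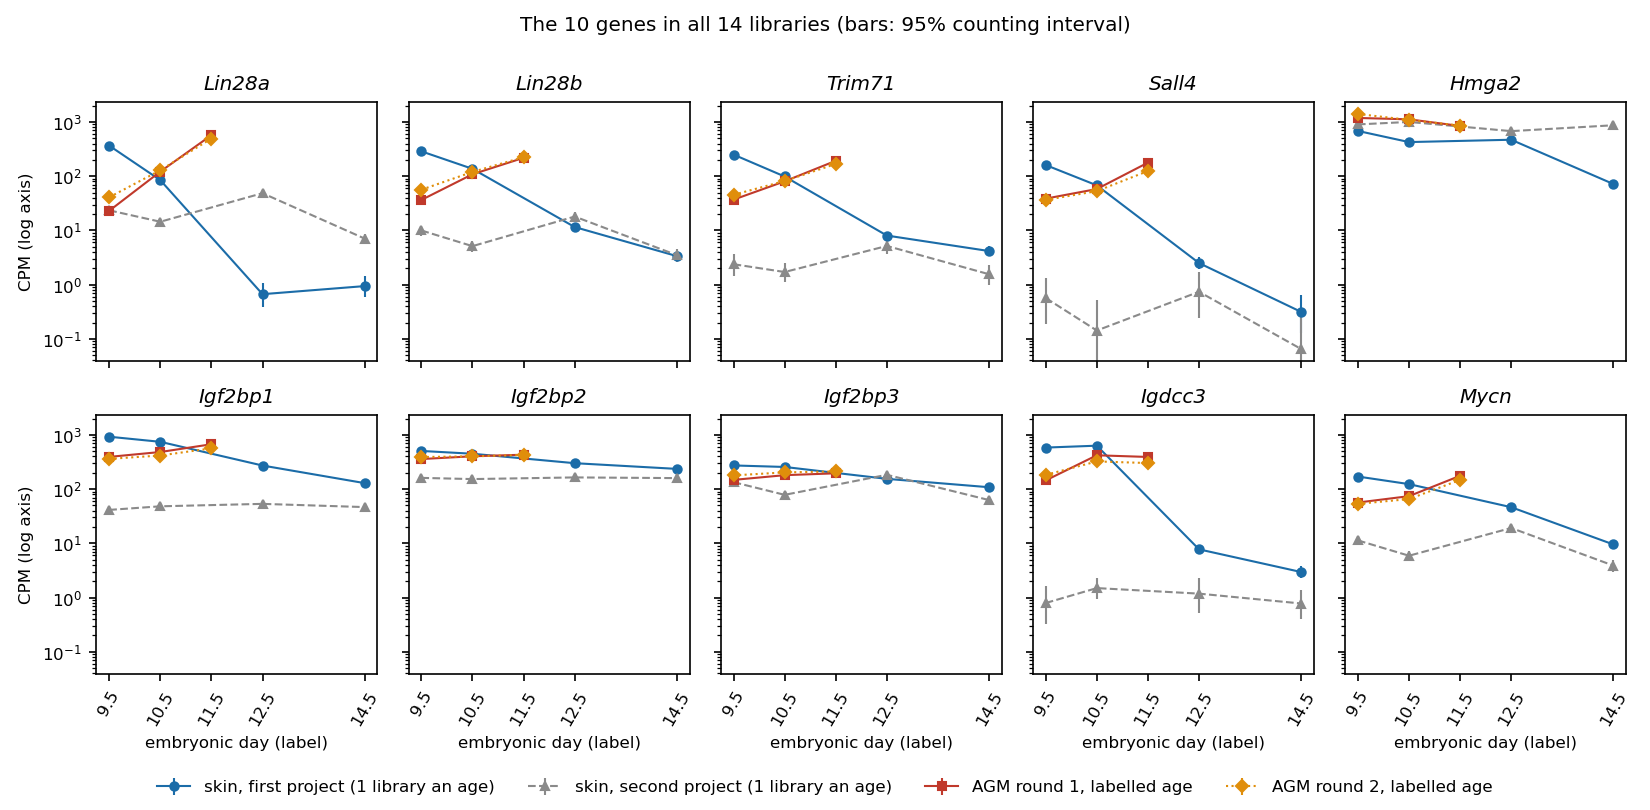
CPM of the 10 genes (log axis) against the labelled embryonic day, with first-project skin, second-project skin and the 2 AGM rounds as separate lines and 95% counting intervals as bars, 1 point a library. From the first to the last age first-project skin falls for all 10 genes, and both AGM lines end higher than they start for all but Hmga2. Second-project skin lies below early first-project skin for 9 genes.

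Trim71, also called Lin41, is a let-7 target that represses and degrades mRNAs in stem and progenitor cells, and Sall4 is a zinc finger transcription factor of pluripotent and germ cells. Trim71 stood at 250 CPM in first-project skin at E9.5, and at 98.7, 8.04 and 4.16 CPM at the later ages. All 3 of its steps passed, with log2 changes of −1.34 ± 0.17, −3.67 ± 0.20 and −0.82 ± 0.22 (adjusted p = 0.0038, 2.5e-05 and 0.027). Sall4 stood at 161, 67.8, 2.5 and 0.313 CPM, the last from 7 counts with an interval of 0.126 to 0.646 CPM. Its log2 changes were −1.24 ± 0.23, −4.81 ± 0.30 and −2.85 ± 0.55 (adjusted p = 0.017, 3.5e-05 and 0.0062), and its fall over the whole range, −8.90 ± 0.40, was the deepest of the 10 genes.

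In AGM Trim71 stood at 36.9 and 45.4 CPM in the libraries labelled E9.5, 80.4 and 81.4 in those labelled E10.5, and 192 and 168 in those labelled E11.5. Sall4 stood at 38.6 and 36.5, 58.0 and 53.1, and 178 and 125 CPM. Neither gene's labelled ages overlapped. From E9.5 to E11.5 Trim71 rose by 2.28 ± 0.13 (adjusted p = 1.7e-05) and Sall4 by 2.16 ± 0.17 (adjusted p = 6.7e-05) on the log2 scale. Primordial germ cells also express Sall4. Of 8 germ-cell genes tested, Prdm1 and Tfap2c rose over the same range and 5 fell, namely Ddx4, Dppa3, Nanog, Nanos3 and Pou5f1, where 21.1% of all genes were called higher and 24% lower. The whole list of 10 germ-cell genes summed to 23.97 and 21.4 CPM in the libraries labelled E9.5 and to 29.3 and 26.6 CPM in those labelled E11.5. These genes were named after their values were seen, and their part in the Sall4 result was not tested.

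Hmga2, a chromatin protein of growing embryonic tissue and a textbook let-7 target, was the gene that did not follow the rest. In first-project skin it stood at 683, 426, 470 and 71.6 CPM. Between E10.5 and E12.5, where the other 9 genes fell, its log2 change of 0.09 ± 0.14 did not pass (adjusted p = 0.67). It then fell to E14.5, at −2.58 ± 0.15 (adjusted p = 2.2e-05). Its first step, −0.68 ± 0.14 (adjusted p = 0.030), did not pass without the first AGM library labelled E10.5 or without either one labelled E11.5 (adjusted p = 0.0503, 0.0532 and 0.0513). In AGM it stood at 1186 and 1406 CPM in the libraries labelled E9.5, 1119 and 1091 in those labelled E10.5, and 844 and 857 in those labelled E11.5. The libraries labelled E11.5 lay below all others, with a log2 change from E9.5 of −0.46 ± 0.11 (adjusted p = 0.0097), which did not pass without the second one labelled E11.5 (−0.45, adjusted p = 0.0502). Exons of Hmga2 share 140 bases with 1700006J14Rik, an antisense gene at or below 6.99 CPM, and the sources used here do not give whether counting used strand.

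The 3 Igf2bp genes encode RNA-binding proteins that protect and localise mRNAs of embryonic growth, and Lin28 is known to bind some of the same mRNAs. Igf2bp1 stood at 926, 746, 272 and 129 CPM in first-project skin. Igf2bp2, the member that persists in adult tissue, stood at 506, 449, 301 and 236 CPM, and Igf2bp3 at 273, 256, 155 and 108 CPM. All 3 fell from E10.5 to E12.5, with log2 changes of −1.5 ± 0.18, −0.63 ± 0.13 and −0.78 ± 0.16 (adjusted p = 0.00054, 0.0069 and 0.0086). Over the whole range Igf2bp1 fell 7.18-fold, Igf2bp3 2.52-fold and Igf2bp2 2.14-fold in CPM, the 3 smallest falls of the 10 genes. Per length, Igf2bp1 was the most abundant of the 3 at E9.5 (95.6 RPKM against 68.4 and 33.5) and Igf2bp2 at E14.5 (31.9 against 13.3 and 13.3).

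In AGM Igf2bp1 stood at 393 and 362 CPM in the libraries labelled E9.5, 484 and 417 in those labelled E10.5, and 673 and 565 in those labelled E11.5. Its labelled ages did not overlap, and the log2 change from E9.5 to E11.5 was 0.86 ± 0.13 (adjusted p = 0.0012). Igf2bp2 rose by 0.34 ± 0.09 (adjusted p = 0.019), from 359 and 391 to 432 and 427 CPM. Igf2bp3 rose by 0.46 ± 0.12 (adjusted p = 0.013), from 148 and 179 to 196 and 212 CPM. Both are small shifts close to the spread between rounds. Igf2bp2 did not pass without the first library labelled E9.5 or either one labelled E11.5 (0.28, 0.32 and 0.37, adjusted p = 0.10, 0.092 and 0.059). Igf2bp3 did not pass without the first labelled E9.5 or the second labelled E11.5 (0.33 and 0.42, adjusted p = 0.083 and 0.063). Igf2bp3 shares 1529 exon bases with Malsu1 on the opposite strand, which lay at or below 16.9 CPM.

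Igdcc3 encodes an immunoglobulin-domain membrane protein of the early neural tube and mesoderm. Its skin profile was a step rather than a slope. It stood at 584 and 633 CPM at E9.5 and E10.5 and at 7.75 and 2.95 CPM at E12.5 and E14.5. The first step, 0.12 ± 0.25, did not pass (adjusted p = 0.88), and the second, −6.40 ± 0.33, did (adjusted p = 2.1e-05), followed by −1.26 ± 0.34 (adjusted p = 0.028). In AGM it stood at 145 and 183 CPM in the libraries labelled E9.5, 421 and 324 in those labelled E10.5, and 392.02 and 303 in those labelled E11.5. The libraries labelled E9.5 lay below the rest, and the ranges of the labels E10.5 and E11.5 overlapped. The log2 change from E9.5 to E11.5 was 1.23 ± 0.19 (adjusted p = 0.0014) and that from E10.5 to E11.5 was −0.01 ± 0.19 (adjusted p = 0.98), whose sign changed with the scaling.

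Mycn, the Myc family member of embryonic progenitors, stood at 171, 124, 46.4 and 9.54 CPM in first-project skin. Its first step of −0.46 ± 0.17 did not pass (adjusted p = 0.17), while the later ones, −1.46 ± 0.17 and −2.15 ± 0.19, did (adjusted p = 0.00052 and 0.00012). In AGM it stood at 56.6 and 53.6 CPM in the libraries labelled E9.5, 74.2 and 65.5 in those labelled E10.5, and 176 and 148 in those labelled E11.5. The labelled ages did not overlap, and the log2 change from E9.5 to E11.5 was 1.70 ± 0.12 (adjusted p = 4.4e-05).

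**Figure D4:**
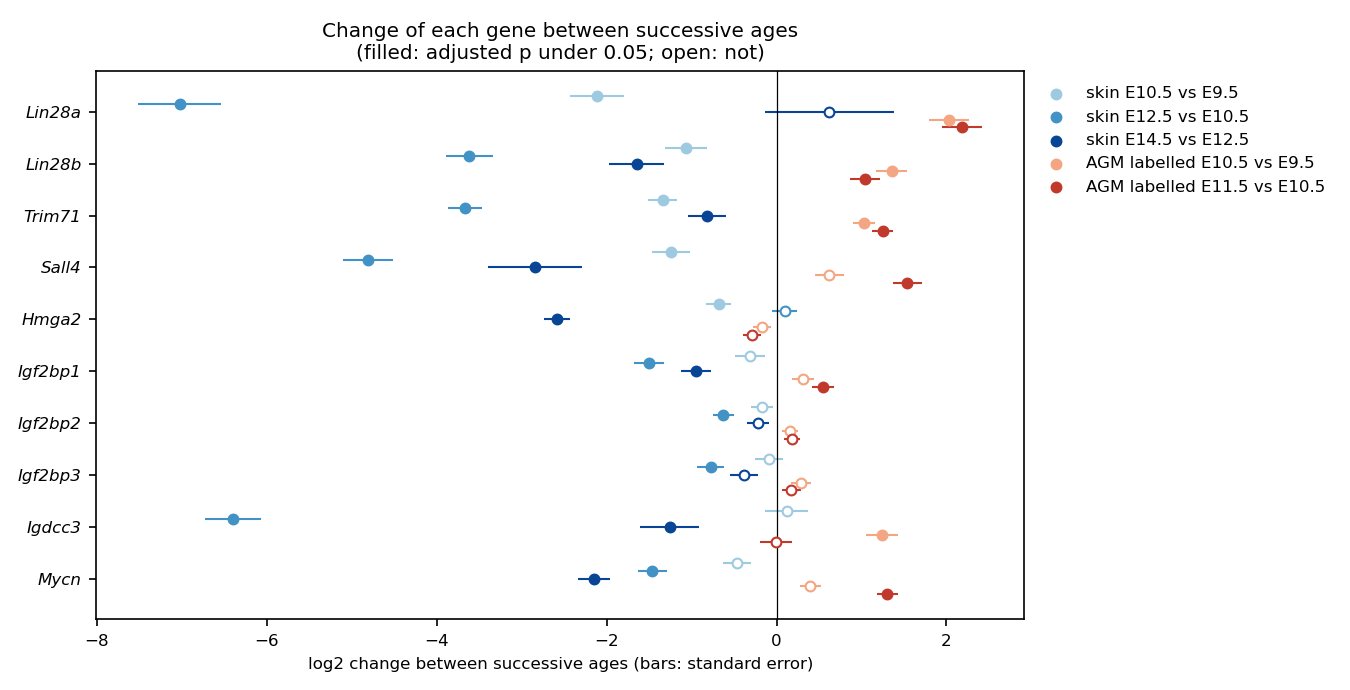
Log2 change of each gene between successive ages, with the standard error as bar, in first-project skin (blues) and AGM by labelled age (reds), filled where the adjusted p was under 0.05. Between E10.5 and E12.5 in skin 9 genes lie left of 0, and Lin28a and Igdcc3 lie furthest, while Hmga2 lies near 0.

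By count and median of the 10 genes, the skin fall was largest between E10.5 and E12.5. The first step spans fewer days than the later ones, so the steps are not compared per day. For Hmga2 and Mycn the largest fall came after E12.5, at −2.58 and −2.15. From E9.5 to E10.5, 5 of the 10 fell, with a median log2 change of −0.57 against −0.00 over all genes tested, while 1.79% of all genes were called lower. They were Lin28a, Lin28b, Trim71, Sall4 and Hmga2. Without either AGM library labelled E11.5, Lin28b (−1.07 both times) and Hmga2 (−0.68 both times) did not pass, and the calls over all genes fell too. From E10.5 to E12.5, 9 of the 10 fell (median −2.56 against 0.00, 12.7% of genes called lower). From E12.5 to E14.5, 7 of the 10 fell (median −1.10 against 0.02, 13.2% called lower), and from E9.5 to E14.5 all 10 fell (median −4.95 against 0.00, 20.7% called lower). In 7 of the 10 genes each later first-project library lay below the one before it, a count that was not made over all genes. With round as a block, Igf2bp1 and Mycn also passed from E9.5 to E10.5 (adjusted p = 0.025 and 0.00073), and Igf2bp3 from E12.5 to E14.5 (adjusted p = 0.0039). Over all 19945 genes the block raised the calls in these steps from 1282 to 3872 and from 5488 to 9023. Each skin age is 1 library, assumed to vary like the AGM pairs.

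In AGM, 4 of the 10 genes rose from the label E9.5 to the label E10.5, with a median log2 change of 0.51 against −0.00 over all genes, while 0.874% of all genes were called higher. They were Lin28a (2.03 ± 0.24, adjusted p = 0.014), Lin28b (1.36 ± 0.18, adjusted p = 0.019), Trim71 (1.03 ± 0.13, adjusted p = 0.015) and Igdcc3 (1.24 ± 0.19, adjusted p = 0.026). Taking the round as a block raised the calls over all genes, in either direction, from 457 to 4237 of 17613. Among the 10 genes it raised the count to 8, adding Sall4, Igf2bp1, Igf2bp3 and Mycn (adjusted p = 0.00069, 0.0044, 0.0041 and 0.00078). Leaving out the second library labelled E10.5 lowered it to 0 of 10 by edgeR, with 7 at an unadjusted p under 0.05 and adjusted p of 0.062 to 0.10 for the 4 genes. Leaving out the first labelled E9.5 lowered it to 2, without Trim71 and Igdcc3 (adjusted p = 0.099 and 0.17), and Igdcc3 also did not pass without the first labelled E10.5 (adjusted p = 0.062). By DESeq2 the count was 5.

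From the label E10.5 to E11.5, 6 of the 10 rose (median 0.80 against 0.00, 11.8% of genes called higher). Lin28a rose by 2.18 ± 0.23 (adjusted p = 0.00052), Sall4 by 1.54 ± 0.17 (adjusted p = 0.00058), Mycn by 1.31 ± 0.12 (adjusted p = 0.00028) and Trim71 by 1.25 ± 0.13 (adjusted p = 0.00039). Lin28b (1.04 ± 0.18) and Igf2bp1 (0.55 ± 0.13) made up the 6 (adjusted p = 0.0041 and 0.017), and Igf2bp1 did not pass without the first library labelled E11.5 or the second labelled E10.5 (adjusted p = 0.10 and 0.097). With round as a block Igf2bp2 and Igf2bp3 also rose (adjusted p = 0.033 and 0.026) and Hmga2 fell (−0.29, adjusted p = 0.0072). The block raised the calls over all genes, in either direction, from 4791 to 8491 of 17613. From E9.5 to E11.5, 9 rose and 1 fell (median 1.47 against −0.00), where 21.1% of all genes were called higher and 24% lower. In 7 of the 10 genes the 3 labelled ages rose without overlap. That count was not made over all genes and describes the 10 alone.

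AGM was set against first-project skin at the 2 shared age labels, with tissue, sequencing project and true age not separable. The marker genes above run against the AGM labels, and the tissue labelled E9.5 is the caudal part of the embryo with PsP. At the label E9.5, 9 of the 10 genes were lower in AGM and Hmga2 was higher (median −1.78 against 0.04, where 15.9% of all genes were called lower and 18% higher). The log2 difference was −3.58 ± 0.26 for Lin28a (adjusted p = 6.3e-05), −2.69 ± 0.21 for Lin28b (adjusted p = 7.5e-05) and −2.66 ± 0.14 for Trim71 (adjusted p = 1.3e-05). That of Igf2bp2 was −0.49 ± 0.11 (adjusted p = 0.0095), the smallest of these differences. Hmga2 was higher in AGM by 0.87 ± 0.13 (adjusted p = 0.0017).

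At the label E10.5 the tissues lay closer. Of the 10 genes 3 were lower in AGM and 1 higher (median −0.27 against 0.01, where 12.2% of all genes were called lower and 11.7% higher). Igf2bp1 (−0.71 ± 0.15, adjusted p = 0.0092), Igdcc3 (−0.75 ± 0.21, adjusted p = 0.036) and Mycn (−0.81 ± 0.14, adjusted p = 0.0041) were lower, and Hmga2 was higher by 1.39 ± 0.13 (adjusted p = 0.00018). Igdcc3 did not pass without the second AGM library labelled E10.5 (−0.56, adjusted p = 0.13). Lin28a, at 121 and 129 CPM against 84.6 CPM, did not pass (0.58 ± 0.27, adjusted p = 0.17). With round as a block Lin28a (adjusted p = 0.043) and Igf2bp3 (−0.41, adjusted p = 0.00094) did. Both also passed without the low-count filter (adjusted p = 0.00070 and 0.020) and without either AGM library labelled E9.5 (0.58 and −0.40 both times).

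From E9.5 to E10.5 the difference between the AGM change and the skin change was itself tested. It passed for 5 of the 10 genes, all with a higher change in AGM, where 2.63% of all genes were called in that direction (median of the 10 genes 1.0 against 0.01). The AGM change exceeded the skin change by 4.15 ± 0.40 for Lin28a (adjusted p = 0.0025), 2.44 ± 0.31 for Lin28b (0.0046), 2.38 ± 0.21 for Trim71 (0.0020), 1.87 ± 0.28 for Sall4 (0.0079) and 0.87 ± 0.20 for Mycn (0.039) on the log2 scale. Mycn did not pass without either library labelled E9.5 or the first labelled E10.5 (0.91, 0.83 and 0.76). With all 14 libraries and the skin titles as separate groups it did not pass either (0.84, adjusted p = 0.070). Igdcc3, at 1.13 ± 0.31 (adjusted p = 0.065), passed by DESeq2 (1.14, adjusted p = 0.0024) and, as did Igf2bp1, by edgeR without the low-count filter (adjusted p = 4.2e-07 and 0.018). Igdcc3 also passed without the second library labelled E9.5 or E10.5 (1.31 and 1.32). With round as a block all 10 genes passed in this direction, while the calls over all genes, in either direction, rose from 1530 to 5137 of 19945. Given the marker genes above, this difference rests on the AGM age labels.

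In second-project skin 9 of the 10 genes, all but Hmga2, lay lower in each library than in first-project skin at E9.5 and E10.5. None of the 10 fell at every step from E9.5 to E14.5. Neither count was made over all genes, so both describe the 10 alone. Between the end points, 1 library each, all but Igf2bp1 lay lower at E14.5 than at E9.5 in second-project skin. Mycn stood at 11.3 and then 3.89 CPM, Lin28b at 9.98 and 3.50, and Igf2bp3 at 134 and 62.8. Igf2bp2 (161 and 160 CPM), Igdcc3 (0.794 and 0.777) and Hmga2 (902 and 870) were nearly level, and Igf2bp1 went from 41.4 to 46.6 CPM. Lin28a stood at 23.5, 14.45, 48.6 and 7.06 CPM there, from the youngest to the oldest age. At E12.5 that is above first-project skin (0.667 CPM), with counting intervals of 43.5 to 54.1 and 0.381 to 1.08 CPM that do not overlap. Igdcc3 lay at 0.777 to 1.495 CPM at all 4 ages and Sall4 at 0.0648 to 0.739 CPM, from 1 to 5 counts. Igf2bp1 was level at 41.4 to 53.5 CPM and Igf2bp2 at 153 to 164 CPM. Hmga2 was high at every age, at 902, 1002, 678 and 870 CPM, and at E14.5 it stood 12.1-fold above the first-project library of that age.

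A group of 6 of the 10 genes, Lin28a, Lin28b, Trim71, Sall4, Igf2bp3 and Mycn, shared 1 order of ages in second-project skin, with E12.5 highest, E9.5 next, then E10.5, and E14.5 lowest. Mycn, for example, stood at 19.2, 11.3, 5.91 and 3.89 CPM in that order. It is the reverse order of the libraries' total counts, 6770338, 8820803, 14044081 and 15440012. How many of all genes share this order was not counted, and the part of depth or library quality in it was not tested.

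Marker genes of other cells changed over the same ranges, some lists in 1 direction and others in both. For every count of this kind, 20.7% of all genes were called lower and 25.9% higher in first-project skin from E9.5 to E14.5, and 24% lower and 21.1% higher in AGM from the label E9.5 to E11.5. The 8 neural progenitor genes summed to 1103 and 1779 CPM in first-project skin at E9.5 and E10.5 and to 492 and 346 CPM at E12.5 and E14.5, and all 8 fell from E9.5 to E14.5. Of the 8 dividing-cell genes 5 fell over the same range, while 7 of 8 epidermal genes, all 8 dermal genes and 7 of 7 macrophage genes tested rose. Of the neuron genes 2 rose and 6 fell. The other lists were mixed or changed little in skin. Of 8 AGM genes 4 rose and 3 fell, of 8 tailbud genes 1 rose and 3 fell, and of 8 red-cell genes 3 rose and 1 fell. Of 10 germ-cell genes 1 rose and 9 did not pass. In AGM, from the label E9.5 to E11.5, all 8 neural progenitor genes (268 to 289 CPM summed against 591 to 592), all 8 tailbud genes (18.4 to 18.6 against 85.4 to 171), 7 of 8 dividing-cell genes and 5 of 8 epidermal genes rose. All 7 macrophage genes tested (78.8 to 90.1 CPM summed against 6.97 to 7.48), 5 of 8 dermal, 5 of 8 neuron and 5 of 8 AGM genes fell, as did 1 of 8 red-cell genes, while of 8 germ-cell genes tested 2 rose and 5 fell. Their part in the results for the 10 genes was not tested.

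A list of 20 other let-7 targets holds genes of growth and cell division. In first-project skin 15 of the 20 fell and 1 rose from E9.5 to E14.5 (median log2 change −1.0 against 0.00 over all genes), where 20.7% of all genes were called lower and 25.9% higher. In AGM 15 rose and 1 fell from the label E9.5 to E11.5 (median 0.63 against −0.00), where 21.1% of all genes were called higher and 24% lower. Nr6a1, a germ-cell nuclear factor that helps set trunk length, changed most of the 20. It stood at 217, 62.0, 7.37 and 10.7 CPM in first-project skin and rose in AGM from 11.48 and 14.1 CPM at the label E9.5 to 224 and 218 CPM at E11.5. Its log2 changes were −4.26 ± 0.18 in skin (adjusted p = 2.7e-06) and 4.26 ± 0.13 in AGM (adjusted p = 2.4e-06). Arid3b, a DNA-binding protein of the ARID family, changed by −3.41 ± 0.20 and 1.5 ± 0.13, and Hmga1, the chromatin relative of Hmga2, by −1.73 ± 0.16 and 1.51 ± 0.12. Rrm2, a subunit of ribonucleotide reductase, changed by −2.36 ± 0.16 and 1.02 ± 0.11. Insr, the insulin receptor, was the 1 gene called the other way in each tissue, at 0.66 ± 0.15 and −0.41 ± 0.11.

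**Figure D5:**
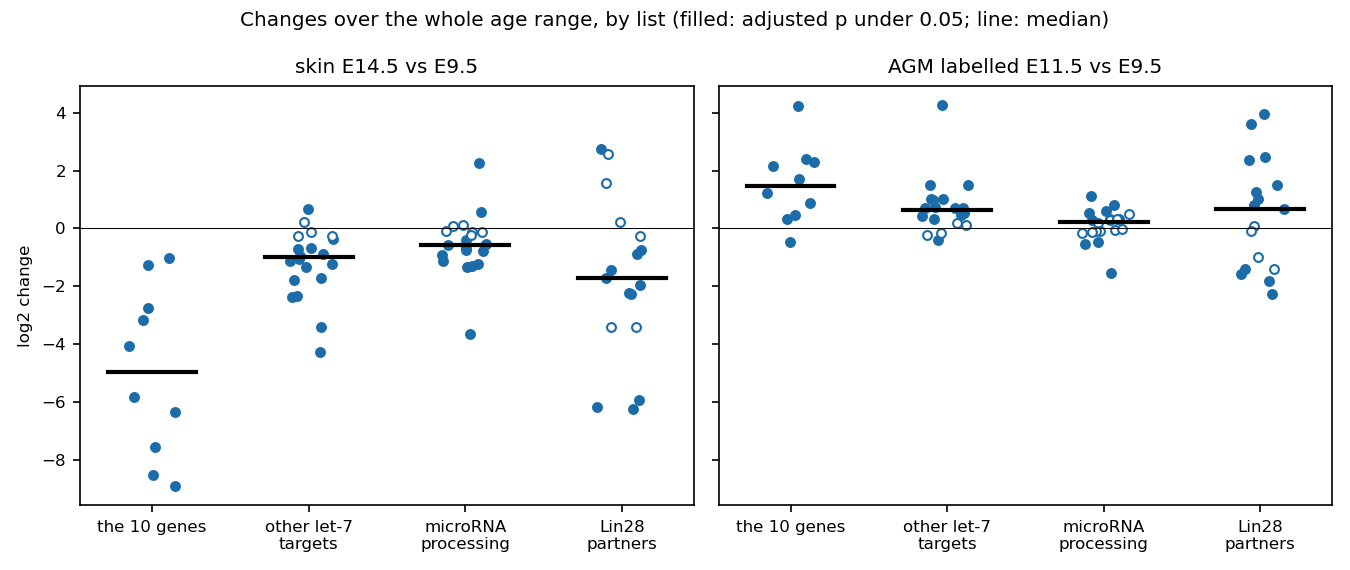
Log2 change of each gene of 4 lists, from E9.5 to E14.5 in first-project skin (left) and from the label E9.5 to E11.5 in AGM (right), 1 point a gene with the list's median as a line. Hmga1 and Myc are in both the list of other let-7 targets and that labelled Lin28 partners. In skin the median was −4.95 for the 10 genes and −1.0 for the other let-7 targets, and in AGM 1.47 and 0.63.

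A further list holds 20 genes that cut, load, tail and degrade let-7 and other microRNAs. In first-project skin 12 fell and 2 rose from E9.5 to E14.5 (median −0.56), beside all-gene shares of 20.7% lower and 25.9% higher. In AGM 7 rose and 3 fell from the label E9.5 to E11.5 (median 0.23), beside all-gene shares of 21.1% higher and 24% lower, so the AGM counts lay near those of all genes. Msi1, the RNA-binding protein Musashi1, changed most in skin (−3.66 ± 0.20, adjusted p = 6.4e-06) and rose in AGM (1.13 ± 0.13, adjusted p = 0.00036). Drosha, which makes the first cut, changed by −1.13 ± 0.13 and Dicer1, which makes the second, by −1.33 ± 0.13 in skin, and in AGM they rose by 0.59 ± 0.09 and 0.34 ± 0.10. Ago4, an Argonaute that carries microRNAs, went the other way, at 2.25 ± 0.29 in skin and −1.55 ± 0.21 in AGM. Zcchc11, the terminal uridylyltransferase that Lin28 recruits to let-7 precursors, fell in both, at −0.57 ± 0.18 in skin and −0.54 ± 0.13 in AGM. Zcchc6, its relative, rose in skin (0.56 ± 0.13) and fell in AGM (−0.45 ± 0.09). Dis3l2, the exonuclease that degrades the tailed precursor, did not pass in either (0.12 ± 0.15 and −0.07 ± 0.10).

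Of 20 early-embryo partners of Lin28, 17 were tested. In first-project skin 10 fell and 1 rose from E9.5 to E14.5 (median −1.73), where 20.7% of all genes were called lower and 25.9% higher. In AGM 9 rose and 4 fell from the label E9.5 to E11.5 (median 0.67), where 21.1% were called higher and 24% lower, and the share that fell lay at that of all genes. Sox2, a factor of pluripotent and neural progenitor cells, stood at 195, 277, 16 and 3.0 CPM in skin and rose in AGM from 6.77 and 6.20 to 89.0 and 90.8 CPM. The Sall4 relatives Sall1 and Sall3 changed in skin by −6.17 ± 0.25 and −6.24 ± 0.47 on the log2 scale and in AGM by 2.35 ± 0.14 and 3.60 ± 0.27. Igdcc4, a relative of Igdcc3, went the other way, rising in skin from 25.4 to 159 CPM (2.73 ± 0.17) and falling in AGM from 97.9 and 84.3 to 17.7 and 16.2 CPM (−2.28 ± 0.12). The pluripotency genes Pou5f1 and Nanog also went against Lin28a in AGM, by −1.40 ± 0.30 and −1.57 ± 0.40 (adjusted p = 0.0061 and 0.014), at 3.52 CPM or less in every library.

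The let-7 transcripts themselves could not be followed. The 15 precursor rows of let-7, miR-98 and miR-125 held 16 counts in all 14 libraries together, and 9 rows had none. PolyA libraries of long RNA do not capture mature microRNAs or their hairpins. Mir99ahg, the host transcript of 1 let-7 and miR-125 cluster, was the only row of that list tested. It fell from 4.50 and 7.73 CPM at the label E9.5 to 0.766 and 1.07 CPM at E11.5 in AGM (−2.59 ± 0.37, adjusted p = 0.00092), against the direction of Lin28a. In first-project skin it fell too, at −1.29 ± 0.42 from E9.5 to E14.5 (adjusted p = 0.033), where Lin28a also fell.

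Profiles nearest to Lin28a were ranked over the 10 first-project skin and AGM libraries among 11428 genes with a mean of 5 CPM or more. The measure was the root mean square difference of centred log2(CPM + 1) values, which were not scaled, so it depends on the size of changes too. Prtg, which encodes the immunoglobulin-domain membrane protein protogenin, was nearest at 0.70, followed by Sall4 (0.94), Lin28b (1.16), Igdcc3 (1.19) and Trim71 (1.2), which are among the 10. Prtg stood at 915, 164, 6.25 and 4.07 CPM in first-project skin and at 39.1 and 48.3, 104 and 121, and 734 and 639 CPM in AGM. Mycn ranked 42nd, Igf2bp1 159th, Hmga2 293rd, Igf2bp3 1366th and Igf2bp2 1477th. Nearest to the mean profile of all 10 were Fignl2 (0.32), Mir17hg (0.34) and Greb1 (0.35), then Trim71 and Hoxd3 (0.40 each). Several of the 10 lay far from that mean, with Igdcc3 895th, Igf2bp3 913th, Igf2bp2 1035th and Lin28a 7182nd. Libraries of 1 set share project or round and most of the age trend, so these ranks are a description.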

How the data were processed

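RNA-seq counts of 14 libraries were used. Per the file headers and the submitters' processing notes, the deposited table holds raw read counts per gene made by the authors. The notes list featureCounts 1.6.0, STAR 2.5.0a, DESeq2 1.20.0, Trimmomatic 0.36 and GRCm38/mm10. Their settings are not given in the sources. Of 14 value columns none was left out, and no 2 columns were identical.

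The 10 genes, the gene lists and the tests were chosen with earlier results of these data known. Named genes were the 10, members of 4 pathway lists called in a comparison by size of change (at most 6 a list and comparison; Zcchc11, Zcchc6, Dis3l2, Insr, Pou5f1 and Nanog were named after their values were seen, for what they encode), and the 5 nearest profiles to Lin28a and to the mean. Genes used to check tissue and age labels came from 10 marker lists. CPM is the count scaled to the library's total, RPKM also divides by kilobases of GENCODE M21 exons, and single libraries carry exact 95% Poisson intervals, which cover counting error only.

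Counts were tested with edgeR 4.0.16 (R 4.3.3): filterByExpr, TMM, glmQLFit and glmQLFTest, Benjamini-Hochberg adjustment over all genes, called under 0.05. AGM ages were fitted on the 6 AGM libraries (17613 genes, 3 residual degrees of freedom, coefficient of variation 12.1%). Comparisons with skin were fitted on the 10 first-project skin and AGM libraries (19945 genes, 3 degrees of freedom), whose spread comes from the AGM pairs alone. The SE is the log2 change over the root of F.

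AGM round differences correlated across 14568 genes at 0.567 (E9.5 and E10.5), 0.363 (E9.5 and E11.5) and 0.448 (E10.5 and E11.5). Libraries of a round thus share differences across the labelled ages. The main fits do not pair by round, and the round block is an alternative. On simulated counts 92% of 2-fold and 100% of 4-fold changes were recovered for AGM E11.5 against E10.5, and 53% and 93% for skin E12.5 against E10.5. Each share is of 100 genes changed among 14964. All libraries were drawn from 1 mean profile with the spread of the AGM pairs. The skin shares therefore assume that skin varies like AGM. Alternatives were RLE factors, DESeq2 1.42.0, no filter, a round block, other library sets and leaving out each AGM library. Of the 10 genes 6 share exon bases with a gene on the opposite strand. Sall4 shares 526 with Gm14261, at or below 0.739 CPM, and Lin28a 234 with Gm13061, at or below 0.552 CPM. These levels are close to the lowest values of Sall4 and Lin28a in skin, and the effect of the overlaps on those values was not tested. No protein sequences were used here.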

Additional observations from a re-analysis of the deposited data

Results flagged for a closer look

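A group of 5 genes differed between the tissues in their change from E9.5 to E10.5, by the test of the difference itself over the 10 first-project skin and AGM libraries. The AGM change minus the skin change was 4.15 for Lin28a, 2.44 for Lin28b, 2.38 for Trim71, 1.87 for Sall4 and 0.87 for Mycn on the log2 scale. In each of the 5 the skin library at E10.5 lay below that at E9.5 while all AGM libraries labelled E10.5 lay above those labelled E9.5. The skin side is 1 library an age, and the AGM side rests on labels that the tailbud, gonad and macrophage genes run against.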

How the results depend on the processing

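Of 100 values, 10 genes in 10 comparisons, 70 were called. None of these 70 changed direction under RLE factors (99 of 100 values kept direction and call), DESeq2 (97), no filter (92), the round block (83), the 14 libraries with skin titles as separate groups (99) or any of 6 fits without 1 AGM library (92 to 96). Taking round as the replicate block raised the calls over all genes in every comparison. They rose from 457 to 4237 of 17613 for AGM E10.5 vs E9.5 and from 1530 to 5137 of 19945 for the difference of changes. Of the 10 genes the count called rose from 4 to 8 and from 5 to 10 in these, and the block removed no call. Without 1 AGM library the count ranged from 0 to 5 for AGM E10.5 vs E9.5 and from 3 to 5 for skin E10.5 vs E9.5. The uncalled change of Igdcc3 from the label E10.5 to E11.5 turned from −0.01 to 0.0027 with RLE, 0.0026 with DESeq2 and 0.0097 with 10 libraries, and ranged from −0.23 to 0.20 without 1 library.

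Treating the 2 skin titles of an age as duplicates raised the coefficient of variation to 81.5%. By edgeR 0 of all 20429 genes tested, the 10 among them, then passed in any of the 10 comparisons. Of the 10 genes 7 had an unadjusted p under 0.05 for skin E14.5 vs E9.5. With the replicate block added the counts of the 10 genes were 0 too, except 1 (Sall4) for AGM vs skin E10.5. Over all genes 3844 passed there, 4321 for AGM vs skin E9.5 and at most 211 in any other comparison. Of the 10 genes 2, 2, 2 and 7 passed unadjusted for AGM E11.5 vs E9.5, skin E12.5 vs E10.5, E14.5 vs E12.5 and E14.5 vs E9.5. Log2 values changed sign in these fits, without and with the block. From E10.5 to E12.5 in skin Hmga2 was −0.39 and −0.20 and Igf2bp3 0.069 and 0.23, and from E12.5 to E14.5 Lin28a was −2.56 and −2.51. AGM vs skin at E10.5 was 0.70 and 1.49 for Lin28b, 0.71 and 2.07 for Trim71, 0.74 and 3.34 for Sall4, 0.19 and 1.05 for Igf2bp1, 0.36 and 0.48 for Igf2bp2, 0.15 and 0.24 for Igf2bp3, 0.26 and 3.04 for Igdcc3, and 0.12 and 0.98 for Mycn. At E9.5 it was 0.088 and 0.22 for Igf2bp2, and with the block 1.48 for Sall4, 0.62 for Igf2bp1, 1.99 for Igdcc3 and 0.031 for Mycn. The difference of changes of Hmga2 was −0.095 without the block. These fits average the 2 skin projects, and the cause of the projects' difference was not tested. Depth limits Sall4 in second-project skin, at 1 to 5 counts a library, and Lin28a in first-project skin from E12.5 on.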

Other observations

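Dicer1 split the second-project skin libraries in the same way as Lin28a but more sharply. It stood at 922 and 1131 CPM at E9.5 and E12.5 and at 86.4 and 90.1 CPM at E10.5 and E14.5, while in the other 10 libraries it ranged from 152 to 406 CPM. Sox2, at 36.6 and 57.9 against 21.1 and 11.3 CPM, Dnmt3b, at 14.7 and 33.7 against 7.19 and 6.02 CPM, and Hnrnpa1, at 586 and 707 against 356 and 258 CPM, were higher in the same 2 libraries. These are the 2 libraries with the fewest counts. Drosha, which acts before Dicer1, lay at 94.1 and 104 against 85.7 and 82.6 CPM. These genes were chosen after their values were seen, and with 1 library an age there is no test.

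Hmga2 and Hmga1 parted in AGM, where Hmga1 rose from 155 and 173 CPM at the label E9.5 to 452 and 390 CPM at E11.5 as Hmga2 fell from 1186 and 1406 to 844 and 857 CPM. In second-project skin both stayed high while Igf2bp1, Trim71 and Sall4 were low, with Hmga1 at 183 to 245 CPM against 45.2 to 203 CPM in first-project skin.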
